A study of Mus musculus with 14 samples.

Results

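The genes described here are 10 members of the liver pathway by which bone morphogenetic proteins (BMPs) set iron balance, namely *Id1*, *Id2*, *Id3*, *Smad6*, *Smad7*, *Hamp*, *Hamp2*, *Atoh8*, *Tfr2* and *Slc40a1*. They were taken by gene symbol from the table of raw counts, in which all 10 of the 10 were among the 55487 listed genes and all 10 passed the filter on low counts that left 12653 genes for testing. Whole-liver RNA was sequenced from 14 male TALLYHO mice aged 8–12 weeks, a polygenic model of type 2 diabetes. Vehicle mice (*n*=7) received water and indole mice (*n*=7) received 20 mg/kg indole, a bacterial product of dietary tryptophan, by oral gavage 2 times a day for 7 consecutive days. In both groups metabolic tests were run on day 8 and day 10 with further doses on the day between, and tissue was collected 1 day after the last test, so that the tests are shared by all mice. The libraries were strand-specific and held 15197498–21060376 counts. Each library was a separate mouse, and the labels gave no batch.

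Hepcidin, the peptide encoded by *Hamp*, is the hormone that lowers plasma iron by binding the iron exporter ferroportin, the product of *Slc40a1*, and causing its breakdown. BMP ligands released largely by sinusoidal endothelial cells act on hepatocyte receptors and the co-receptor haemojuvelin, and the resulting phosphorylated SMADs switch on *Hamp* together with *Id1*, *Smad6*, *Smad7* and *Atoh8*. Interleukin-6 acts on *Hamp* through a separate arm that ends in STAT3.

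*Hamp* and *Hamp2* are neighbouring copies on the minus strand of mouse chromosome 7 (GRCm38). *Hamp* spans chr7:30942368-30944032 and *Hamp2* spans chr7:30922372-30924681, with 17686 bases between them. Their upstream sequences are shown because both arms of hepcidin control have a recognised motif there. In the RefSeq promoter windows (GRCm38.p6), cut to the bases before the first exon, capitals mark GGCGCC, the core of the BMP-responsive element, and TTCNNNGAA, the STAT site, with N standing for any base. The *Hamp* window is chr7:30944033-30944279 and the *Hamp2* window is chr7:30924182-30924431, both read 5′ to 3′ on the minus strand.
Hamp upstream: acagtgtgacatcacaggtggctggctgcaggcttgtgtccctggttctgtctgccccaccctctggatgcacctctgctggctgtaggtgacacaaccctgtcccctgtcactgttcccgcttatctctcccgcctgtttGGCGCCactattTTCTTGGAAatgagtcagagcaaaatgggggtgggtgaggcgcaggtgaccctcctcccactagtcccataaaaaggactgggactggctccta
Hamp2 upstream: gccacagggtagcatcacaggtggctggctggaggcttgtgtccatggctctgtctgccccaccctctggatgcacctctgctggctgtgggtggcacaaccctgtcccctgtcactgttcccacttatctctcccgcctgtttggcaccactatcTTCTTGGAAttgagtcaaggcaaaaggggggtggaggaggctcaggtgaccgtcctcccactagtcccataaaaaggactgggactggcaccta
The windows were 90.8% identical. In the *Hamp* window as printed, GGCGCC was followed by 100 bases and TTCTTGGAA by 85 bases, with 6 bases between the motifs. In the *Hamp2* window the same STAT letters were also followed by 85 bases, while its BMP motif differed by the substitution G4A, counted from 1 at the 5′ end of the *Hamp* motif. Of 32851 RefSeq windows of 250 bases before a start, searched on both strands, 9.59% held GGCGCC and 7.02% held TTCNNNGAA. The *Hamp2* window lies within an intron of another annotated *Hamp2* transcript. Windows were found for 7 of the 10 members, and GGCGCC was also present in the window of *Id2*, at 226 bases before the RefSeq start. The *Id2* and *Id3* windows lie within the annotated span of their gene and overlap an exon of it, as does a *Tfr2* window. These windows were searched uncut, so the *Id2* motif need not lie upstream of the gene. Neither motif was found in the windows of *Id3*, *Smad6*, *Atoh8* and *Tfr2*, and no window was listed for *Id1*, *Smad7* and *Slc40a1*.

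Reads of the hepcidin copies can be told apart only where their transcripts differ. The longest stretch shared by the *Hamp* and *Hamp2* transcripts (GENCODE release 21) was 87 bases, and 60 of the 361 stretches of 50 bases in *Hamp* were also present in *Hamp2*. Counts were made from uniquely mapped reads, so reads within such stretches could be lost or misplaced, and the levels of the copies are uncertain to that extent. A read longer than 87 bases could not lie wholly within a shared stretch, and read length was not taken into account here. A non-coding gene on the opposite strand, *Gm44662*, overlaps both and carried 7–204 counts.

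The members differed widely in abundance. Levels are given first as CPM/kb, the share of a library's counts per kilobase of the gene length in the deposited table, which is the only scale here on which genes are compared. *Hamp* was the most abundant at 1505±551 CPM/kb (mean±SD, *n*=14), and its lowest mouse (579 CPM/kb) lay above the highest *Hamp2* mouse (375 CPM/kb). *Hamp2* came next at 140±101 CPM/kb and overlapped *Tfr2*, the transferrin receptor that senses iron-loaded transferrin, at 93.6±8.93 CPM/kb. The *Hamp2* level was above that of *Tfr2* in 9 of 14 mice. The deposited *Hamp2* length is 583 bases, against 420 bases in the transcript compared above, and the shorter length would raise its level on this scale. *Id2* at 44.3±10.2 CPM/kb overlapped neither *Tfr2* nor *Slc40a1*. *Slc40a1* at 12.01±1.91 and *Id3* at 10.5±1.57 CPM/kb overlapped, with *Slc40a1* higher in 10 of 14 mice. *Id1* at 4.44±2.74 CPM/kb and *Atoh8* at 3.32±0.884 CPM/kb were not separated either, with *Id1* higher in 8 of 14 mice. The inhibitory SMADs were the least abundant, *Smad6* at 1.86±0.339 and *Smad7* at 1.33±0.534 CPM/kb, with *Smad6* higher in 13 of 14 mice. All later levels are CPM, the counts scaled to a common library size after correction by the trimmed mean of M values (TMM).

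*Id1* encodes an inhibitor of DNA binding, a protein that holds basic helix-loop-helix factors off DNA, and lies at chr2:152736251-152737410 on the plus strand. The members were chosen with a lower *Id1* level in this same comparison already known, so the differences of all 10 are described without a test. In vehicle mice, *Id1* stood at 13.2 CPM in G10 and 11.1 CPM in G4, while G9, G13, G1, G6 and G11 lay between 4.60 and 5.32 CPM. In indole mice it stood at 5.20 CPM in G2, 4.10 in G14, 3.50 in G8, 3.34 in G7, 3.16 in G3, 2.16 in G5 and 1.86 in G12. Thus 6 of 7 indole mice lay below every vehicle mouse, G2 lay among the vehicle mice, and the spread of the vehicle group came mainly from 2 high mice. The group levels were 6.98±3.59 and 3.33±1.13 CPM (mean±SD, *n*=7 per group), and the fitted log2 fold change was −1.06 (SE 0.287). The medians were 5.07 CPM with vehicle and 3.34 CPM with indole. Leaving out G10 gave a log2 fold change of −0.83 and leaving out G4 gave −0.90. These values rest on 33–202 counts per library.

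**Figure D1:**
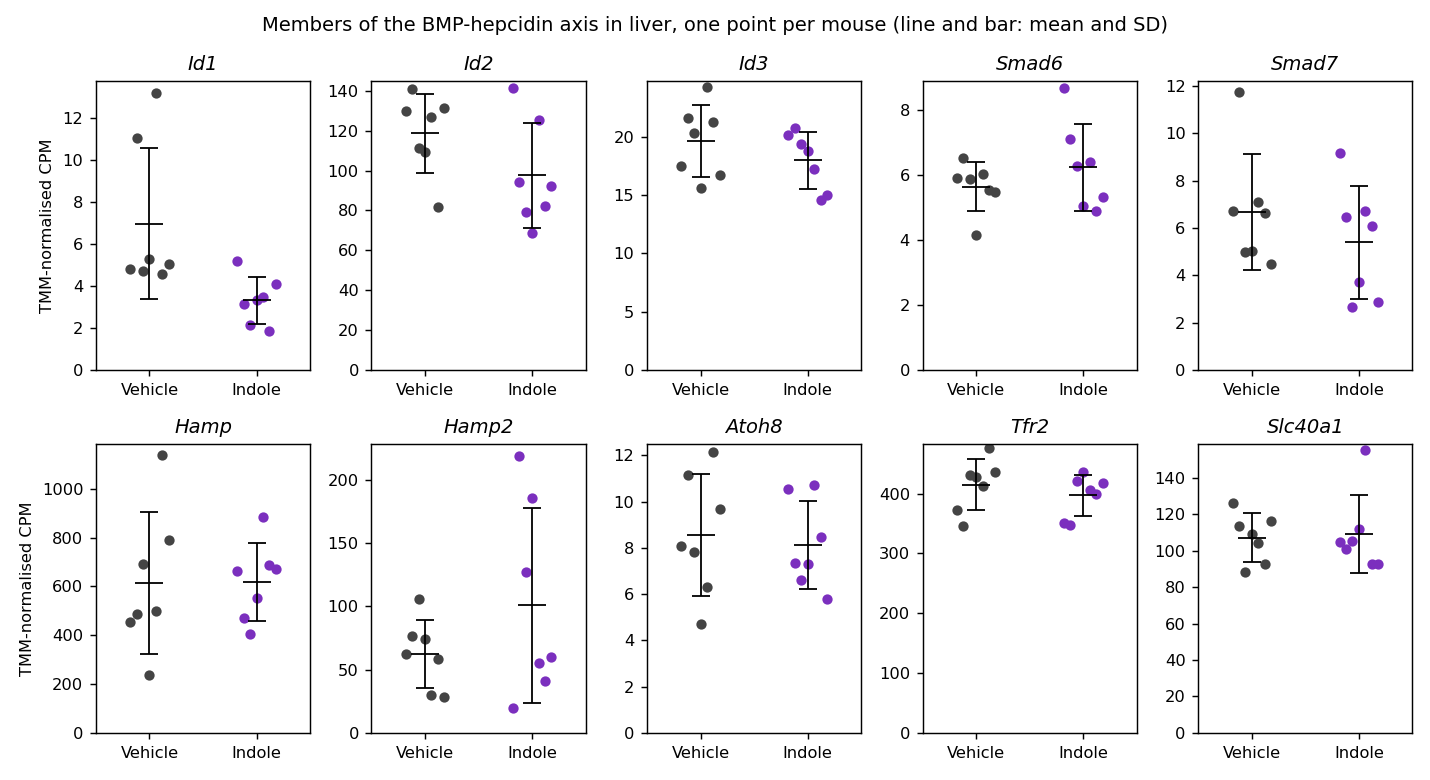
TMM-normalised CPM (linear axis from 0) of the 10 members in each mouse, vehicle on the left and indole on the right of each panel, with the group mean as a line and the SD as a bar (*n*=7 per group). The groups overlap in every panel, and the 2 high vehicle mice of *Id1* (11.1 and 13.2 CPM) and the wide indole spread of *Hamp2* (19.3–218 CPM) stand out.

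*Id2*, another inhibitor of DNA binding (chr12:25093799-25097140, minus strand), had its lowest, median and highest vehicle values at 81.6, 127 and 141 CPM and its indole values at 68.6, 92.3 and 141 CPM. The highest mouse of each group stood at the same level, and 6 of 7 indole mice lay below the vehicle median. The log2 fold change was −0.28 (SE 0.154). *Id3*, of the same family (chr4:136143497-136145755, plus strand), ranged over 15.6–24.3 CPM with vehicle and 14.5–20.7 CPM with indole, with medians of 20.3 and 18.7 CPM. Its log2 fold change was −0.12 (SE 0.108) and was −0.06 without vehicle mouse G10, its highest mouse. The 3 family members were thus each lower on average with indole, and the groups overlapped for each.

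The inhibitory SMADs, which are induced by BMP signalling and block its receptors, pointed in opposite directions. *Smad6* (chr9:63953076-64022059, minus strand) ranged over 4.15–6.53 CPM with vehicle (median 5.87) and 4.90–8.67 CPM with indole (median 6.29), a log2 fold change of 0.15 (SE 0.144). Its lowest vehicle mouse, G9, stood apart at 4.15 CPM, and the log2 fold change was 0.09 without G9 and 0.05 without indole mouse G2, its highest mouse. *Smad7* ranged over 4.50–11.7 CPM with vehicle (median 6.65) and 2.68–9.14 CPM with indole (median 6.09), a log2 fold change of −0.30 (SE 0.275). The highest *Smad7* mouse of the vehicle group was G4, also high for *Id1*, and leaving it out gave −0.11. Leaving out indole mouse G2, the highest of its group, gave −0.48, so that the size of the difference turned on these mice.

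Hepcidin mRNA had nearly equal group means. *Hamp* ranged over 238–1140 CPM with vehicle (median 498) and 404–885 CPM with indole (median 662). The vehicle group held both the lowest mouse, G9, and the highest, G11, and the means were 614±291 and 620±159 CPM (*n*=7 per group). The fitted log2 fold change was 0.01 (SE 0.292), and it ran from −0.13 without G9 to 0.24 without G11, so no direction can be given.

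*Hamp2*, whose peptide is not known to share the iron-regulating action of hepcidin, was the most variable member. It ranged over 28.7–105 CPM with vehicle (median 62.7) and 19.3–218 CPM with indole (median 59.8). Of the indole mice, G3, G7 and G5 lay above every vehicle mouse at 218, 186 and 127 CPM, while G2 lay below every vehicle mouse. The means were 62.3±27.1 and 101±77.1 CPM, a log2 fold change of 0.70 (SE 0.516) that was 0.39 without G3, although the medians were nearly equal. On the scale of CPM/kb, *Hamp* exceeded *Hamp2* by 4.54-fold to 39.1-fold across vehicle mice (median 10.3) and by 3.08-fold to 48.8-fold across indole mice (median 15.97). These ratios use the deposited lengths of 410 bases for *Hamp* and 583 bases for *Hamp2*. With the 420 bases of the *Hamp2* transcript compared above, every ratio would be lower by the same factor. The proportion of the copies therefore varied more within each group than between the group medians.

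*Atoh8*, a basic helix-loop-helix factor that acts on *Hamp* transcription (chr6:72206177-72235577, minus strand), ranged over 4.69–12.1 CPM with vehicle (median 8.09) and 5.80–10.7 CPM with indole (median 7.33). Its log2 fold change was −0.08 (SE 0.189) and ran from −0.18 without G9 to 0.03 without G11. *Tfr2* (chr5:137569840-137587481, plus strand) was the steadiest of the abundant members, at 347–477 CPM with vehicle (median 428) and 348–436 CPM with indole (median 407), and its log2 fold change was −0.06 (SE 0.080), with −0.10 without G4 and −0.02 without G11. *Slc40a1* (chr1:45908068-45926523, minus strand) ranged over 88.3–126 CPM with vehicle (median 109) and 92.5–155 CPM with indole (median 105). Its highest mouse, indole G8, stood apart from the next at 112 CPM, and the log2 fold change was 0.03 (SE 0.107) with G8 and −0.08 without it. The same mouse had the highest level of Kupffer cell markers, the liver macrophages that export iron from engulfed red cells, with a mean of 4.89 on the log2 CPM scale against 3.01–3.72 in the other indole mice. The part of those cells in the *Slc40a1* level was not tested. In these bulk samples, fewer cells of a type and less RNA per cell cannot be told apart.

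In all, 6 of the 10 members were lower and 4 were higher with indole, with a median log2 fold change of −0.07, beside 48.7% of the 12653 tested genes that were lower and a median of 0.00 over them. The edgeR quasi-likelihood test gave an unadjusted *p* under 0.05 for 3.81% of all tested genes, 1.53% higher and 2.28% lower. The members are not counted separately in this test, because *Id1* was chosen on this contrast. No tested gene passed after Benjamini–Hochberg adjustment in edgeR (smallest adjusted *p*=0.998), where 482 had an unadjusted *p* under 0.05. DESeq2 passed 1 gene, *Cyp2c29*, which is no member and was named after its value was seen. The groups did not overlap for 0 of the 10 members, beside 0.0474% of tested genes.

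The members also differed in how much they varied between mice of a group. Against the 1000 genes closest in abundance, the within-group SD of log2 CPM was at the percentile 99.7 for *Hamp2*, 97.4 for *Hamp*, 94.9 for *Smad7*, 94.7 for *Id2*, 93.5 for *Id1* and 92.2 for *Atoh8*. *Slc40a1* was at 82.5, *Id3* at 66.3, *Tfr2* at 35.8 and *Smad6* at 35.4. The hepcidin copies and most of the BMP targets were thus among the more variable of the genes of like abundance, while *Tfr2* and *Smad6* were not.

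Of the other genes of the pathway, the 7 BMP ligands tested included *Gdf2*, which encodes BMP9 and was the most abundant by length, at 20.9±1.68 CPM with vehicle and 21.8±4.29 CPM with indole (log2 fold change 0.06, SE 0.109). *Bmp6* and *Bmp2*, the endothelial ligands most closely tied to hepcidin, had log2 fold changes of 0.03 (SE 0.178) and 0.18 (SE 0.128), both chosen for mention after their values were seen. None of the 7 ligands had an unadjusted *p* under 0.05, and their median log2 fold change was 0.03. Of 10 receptors and co-receptors, 1 had an unadjusted *p* under 0.05, the endothelial co-receptor endoglin (*Eng*), at 61.3±7.46 CPM with vehicle and 72.2±12.4 CPM with indole (log2 fold change 0.24, SE 0.105). It did not pass after adjustment, and the unadjusted *p* was over 0.05 in 2 of 10 other settings (limma voom and 1 surrogate variable) and on leaving out any 1 of 8 of the 14 mice. Haemojuvelin (*Hjv*), the most abundant of this list by length, was at 82.4±8.10 and 76.3±5.14 CPM (log2 fold change −0.11, SE 0.0715), and the median of the list was −0.06.

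The 4 SMAD transducers were each lower on average, with a median of −0.15, and none had an unadjusted *p* under 0.05. *Smad4*, the shared partner of the receptor-activated SMADs, had a log2 fold change of −0.10 (SE 0.079). Of 15 inhibitors of the pathway, 0 had an unadjusted *p* under 0.05 (median −0.07), and *Tmprss6*, the protease that removes haemojuvelin from the cell surface, stood at 598±33.2 CPM with vehicle and 601±48.5 CPM with indole. *Erfe*, the erythroid hormone that lowers hepcidin by trapping BMPs, carried 4 counts in all vehicle libraries together and 4 in all indole libraries. Of 5 further genes listed as BMP targets, all 5 were lower on average but none had an unadjusted *p* under 0.05, with a median of −0.03. The most abundant of them, *Xiap*, had a log2 fold change of −0.03 (SE 0.0881), which is the median of the list. Whether *Xiap* is a BMP target in liver was not tested.

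Iron-handling genes were spread on both sides of 0, with 17 of 30 higher and 13 lower and a median log2 fold change of 0.02. The iron importer *Slc39a14* was the only one of the 30 with an unadjusted *p* under 0.05, at 146±28.0 CPM with vehicle and 123±7.45 CPM with indole (log2 fold change −0.25, SE 0.0978), and it did not pass after adjustment, nor at the unadjusted level with limma voom or without G13. Transferrin (*Trf*), the most abundant, had a log2 fold change of −0.04 (SE 0.0755). The list for the interleukin-6 arm of hepcidin control also held *Il22ra1* (log2 fold change −0.32, SE 0.271) and *Inhbb* (−0.24, SE 0.430). Neither of them is a part of interleukin-6 signalling itself. All 9 tested genes of the list were lower on average. The median of −0.24 is the value of *Inhbb*, which carried 1–19 counts per library. *Il6st*, *Jak1*, *Jak2* and *Tyk2* lay between −0.11 and −0.02. Of the 9 genes, 3 had an unadjusted *p* under 0.05. These were *Il6ra* (log2 fold change −0.24, SE 0.114), *Stat3* (−0.32, SE 0.141) and *Socs3* (−1.25, SE 0.412). The *Il6ra* call was lost in 7 of 10 other settings, DESeq2 among them, and on leaving out any 1 of 11 of the 14 mice. The *Stat3* call was lost with 1 surrogate variable and on leaving out G2, G3, G5, G11 or G13, and the *Socs3* call was kept throughout. The study had singled out this arm on these samples, so its direction is not independent evidence. Of 13 immediate early genes, *Junb* alone had an unadjusted *p* under 0.05 (log2 fold change −0.72, SE 0.194), a call kept under every setting, and the median was −0.13. The lists held 7, 10, 4, 15, 5, 30, 9 and 13 tested genes in the order given, with *Bmp6* in both the ligand and the iron list. Over all these lists 6 genes had an unadjusted *p* under 0.05, and 3 did without indole mouse G3. Beside these counts, 3.81% of all 12653 tested genes had an unadjusted *p* under 0.05 and 48.7% were lower. All these lists were chosen with earlier results of these data known. The counts and single calls, that of *Junb* included, are therefore not independent evidence.

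**Figure D2:**
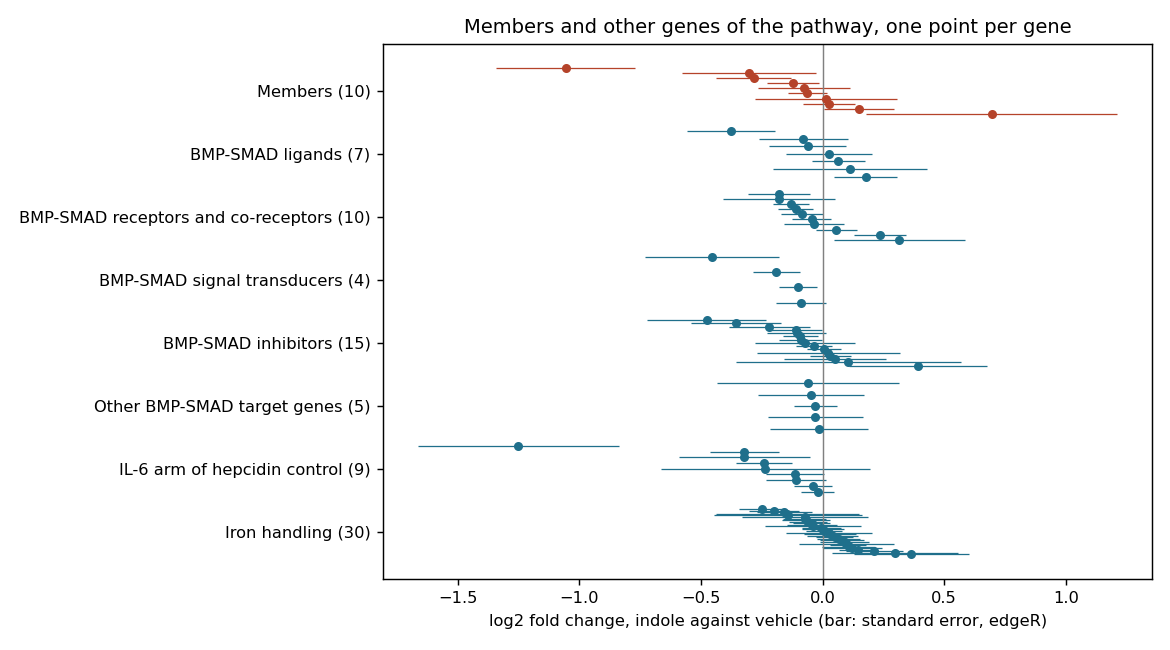
Log2 fold change of indole against vehicle for the 10 members and for the other tested genes of the pathway, 1 point per gene with the number of genes in brackets and the standard error of the edgeR fit as a bar (*n*=7 per group). *Id1* at −1.06 and *Socs3* at −1.25 lie farthest to the left and *Hamp2* at 0.70 farthest to the right. The iron-handling genes lie between −0.25 and 0.37, with a median of 0.02.

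The cell-type markers that differed beside *Id1* and *Hamp* were counted in the same fit. The labelled tissue was borne out by its markers, with all 12 hepatocyte genes past the filter and *Alb* at 64641±6340 CPM with vehicle, and 1 of the 12, transthyretin (*Ttr*), was higher with indole at an unadjusted *p* under 0.05. Of 15 sinusoidal endothelial markers, all 15 were higher with indole and 3 had an unadjusted *p* under 0.05, with summed levels of 168–293 CPM with vehicle and 211–388 CPM with indole. Of 5 mesothelial markers, all 5 were lower and 3 had an unadjusted *p* under 0.05, with summed levels of 6.44–21.7 and 1.58–13.7 CPM. Of 6 erythroid markers, all 6 were higher and 5 had an unadjusted *p* under 0.05, with summed levels of 208–389 and 268–1096 CPM. Kupffer cell markers were higher for 11 of 12 with none at an unadjusted *p* under 0.05, and 1 of 12 stellate cell markers and 1 of 5 bile duct markers were lower at that level. The bile duct gene is *Krt19*, which is also 1 of the 3 mesothelial genes. Beside these marker counts, 3.81% of all tested genes had an unadjusted *p* under 0.05 and 48.7% were lower. The marker lists were chosen with earlier results of these data known, so their counts are a description and not independent evidence. None of the markers passed after adjustment, and their part in the member levels was not tested beyond the correlations that follow.

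Variation between mice within a group does not use the contrast by which the members were chosen, so it was tested. After the group means were removed, 27 of the 45 pairs of members had a positive correlation over the 14 mice, and no pair had an adjusted *p* under 0.05 by Pearson correlation (permutation within groups). By rank, 2 pairs passed. *Id3* and *Smad6* were high and low in the same mice (Spearman rho 0.78, permutation *p*=0.00182, adjusted *p*=0.0443). Their Pearson r was 0.69 (permutation *p*=0.00605, adjusted *p*=0.0955) and was 0.49 without the 2 mice farthest from the median of *Id3*. *Smad7* and *Tfr2* moved in opposite directions (rho −0.80, permutation *p*=0.00197, adjusted *p*=0.0443), with r −0.71 (permutation *p*=0.00556, adjusted *p*=0.0955) and −0.73 without 2 mice. Neither adjusted *p* was far from the threshold, and the number of pairs that passed was 0 under the median-ratio scaling of DESeq2 and 0 on leaving out any 1 of 12 mice, while it was 1 without G7 and 2 without G11. The size of the relations moved less on leaving out a mouse, with rho of 0.71 to 0.85 for *Id3* and *Smad6* and −0.82 to −0.61 for *Smad7* and *Tfr2*.

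Some member levels moved with the scaling factor. The TMM factors of G1, G2, G3 and G4, 2 vehicle and 2 indole mice, were 1.07–1.08 against 0.931–1.004 in the other 10, and *Tfr2* correlated with the factor at r −0.86 (permutation *p*=0.00160, adjusted *p*=0.0160 over 10 members) and rho −0.61 (permutation *p*=0.0305, adjusted *p*=0.116). Without the 2 farthest mice r was −0.76. *Smad7* had r 0.70 with the factor (rho 0.66, permutation *p*=0.0110 for r, adjusted *p*=0.0550) and *Smad6* had r 0.62 (rho 0.46, permutation *p*=0.0308 for r, adjusted *p*=0.103), both in the opposite direction to *Tfr2*. CPM is divided by this factor, so it is not independent of the levels. With the factor also removed, a choice made after seeing the data, *Smad7* and *Tfr2* had rho −0.31 (permutation test, adjusted *p*=0.821).

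*Hamp* and *Atoh8* had the highest Pearson correlation, r 0.74 (permutation *p*=0.00637, adjusted *p*=0.0955) and rho 0.59 (permutation *p*=0.0389, adjusted *p*=0.204). Within groups r was 0.81 in vehicle mice (exact permutation *p*=0.0304) and 0.59 in indole mice (exact permutation *p*=0.159). Mice G9 and G11, the lowest and highest for *Hamp*, were also the lowest and highest for *Atoh8*, and without these 2 mice r was 0.44, so the relation rested largely on them. With the TMM factor removed as well, r was 0.85 (permutation test, adjusted *p*=0.0355) and rho 0.84 (adjusted *p*=0.0328). *Hamp* and *Hamp2*, whose upstream sequences are printed above, had r −0.36 (permutation *p*=0.147, adjusted *p*=0.367) and rho −0.45 (permutation *p*=0.109, adjusted *p*=0.392), and r −0.50 without 2 mice.

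**Figure D3:**
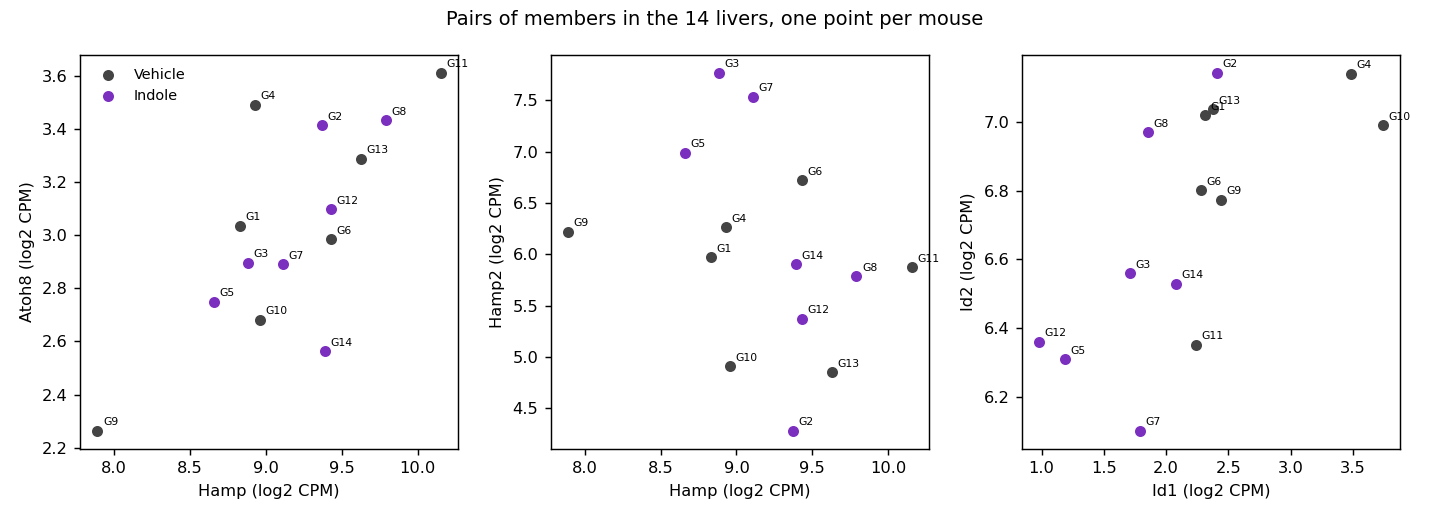
Levels of *Atoh8* against *Hamp*, *Hamp2* against *Hamp* and *Id2* against *Id1* on the log2 CPM scale, 1 point per mouse named beside it, with vehicle in grey and indole in purple. G9 and G11 mark the ends of the *Hamp* and *Atoh8* relation (r 0.74), and G3, G7 and G5 are high for *Hamp2*.

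None of the correlations of *Id1* with other members passed after adjustment. Its correlation with *Id2* was r 0.55 (permutation *p*=0.0384, adjusted *p*=0.203) and rho 0.61 (permutation *p*=0.0275, adjusted *p*=0.199), and r was 0.57 without G10 and G4. With *Id3*, r was 0.51 and rho 0.43 (permutation test, adjusted *p*=0.261 and 0.393), and r was 0.16 without the same 2 mice. With *Smad6* and *Smad7*, r was 0.48 and 0.46, with *Atoh8* it was 0.04 (rho −0.07, permutation *p*=0.907 for r, adjusted *p*=0.927), and with *Hamp* it was −0.07 (rho −0.12, permutation *p*=0.824 for r, adjusted *p*=0.862). Over all 12652 other genes, *Id2* ranked 234 by its r with *Id1*, *Id3* ranked 365, *Smad6* ranked 516 and *Smad7* ranked 585, whereas *Atoh8* ranked 5683 and *Hamp* ranked 7514. The highest r with *Id1* was found for *Fibp* (0.89), *Tipin* (0.87), *Mrps26* (0.85), *Tbk1* (0.84) and *Tbc1d19* (0.82), and the lowest for *Capza2* (−0.89), *Xpo1* (−0.82) and *Nup62* (−0.81), given as a description over 14 mice. Of the 5 highest, 2 remained without G10 and 3 without G4.

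**Figure D4:**
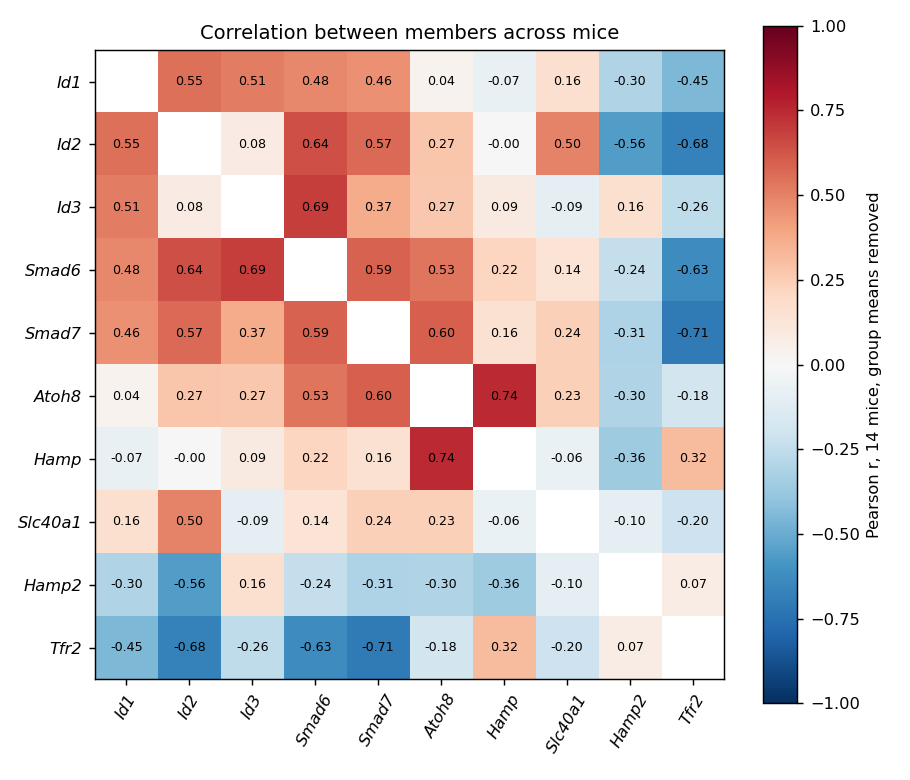
Pearson r between members over 14 mice after removal of the group means, written in each cell, with red for positive and blue for negative values. The *Id* genes and inhibitory SMADs are positive with each other, from 0.08 for *Id2* and *Id3* to 0.69 for *Id3* and *Smad6*. *Tfr2* is negative with them, and *Hamp* is close to 0 with *Id1* (−0.07). No pair passed after adjustment by Pearson correlation.

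The members were also set against the mean log2 CPM of each marker list and of the immediate early genes, 80 relations in all, of which 0 passed after adjustment (permutation within groups, smallest adjusted *p*=0.311). For *Id1*, r was −0.38 with the hepatocyte markers (rho −0.42) and 0.34 with the stellate cell markers (rho 0.31). It was −0.26 with the erythroid, −0.22 with the Kupffer cell, −0.20 with the mesothelial and 0.18 with the sinusoidal endothelial markers. With the bile duct markers it was 0.05, and with the immediate early genes 0.03. *Id3* had r 0.58 with the stellate cell markers (rho 0.58, permutation *p*=0.0161 for r, adjusted *p*=0.311), and 0.38 without 2 mice. *Hamp* had r −0.63 with the endothelial markers (rho −0.69, permutation *p*=0.0153 for r, adjusted *p*=0.311) and −0.33 with the erythroid markers (rho −0.33, permutation *p*=0.178 for r, adjusted *p*=0.605). *Slc40a1* had r 0.66 with the Kupffer cell markers (rho 0.58, permutation *p*=0.0309 for r, adjusted *p*=0.331), and r was 0.33 without the 2 mice farthest from the median of those markers. *Tfr2* had r 0.71 with the hepatocyte markers (rho 0.57, permutation *p*=0.00596 for r, adjusted *p*=0.311), and 0.48 without 2 mice. With the same markers *Smad6* had r −0.71 (rho −0.59), *Id2* had r −0.68 (rho −0.66) and *Smad7* had r −0.65 (rho −0.63). The adjusted *p* for r by permutation was 0.311, 0.311 and 0.331, and without 2 mice r was −0.36, −0.60 and −0.42. The hepatocyte marker mean was 11.74 in G2, 11.80 in G3, 11.83 in G4 and 11.91 in G1, the mice with the higher TMM factors. In the other mice it ranged from 11.84 in G13 to 12.09 in G5. The part of that factor in these relations was not tested gene by gene.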

How the data were processed

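Per the labels, polyA RNA from livers of 14 mice, 7 vehicle and 7 indole, was sequenced as strand-specific libraries. The authors trimmed adapters, used HISAT2 for alignment to the GRCm38 genome, and deposited raw counts per gene from uniquely mapped reads (the counting tool is not given in the sources used here). The deposited counts were used as they stand, 15197498–21060376 per mouse. Groups were taken from the sample labels. Every pair of libraries within a group differed beyond sampling noise (chi-square divided by its degrees of freedom at least 15.7).

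In edgeR 4.0.16 (R 4.3.3), filterByExpr left 12653 genes, TMM scaling was applied, and a robust quasi-likelihood fit on treatment was tested with Benjamini–Hochberg adjustment over all genes. In simulated data with 200 of the 12653 genes changed by 1 on the log2 scale, 155 were recovered with 7 false calls. Log2 CPM used a prior count of 2, CPM was taken as scaled without a prior count, and correlations used 100000 permutations of mice within groups (SciPy 1.17.1), two-sided, with exact enumeration in groups of 7. Promoter windows were RefSeq sequences and transcripts were those of GENCODE release 21.

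The members and gene lists were chosen with earlier results of these data known. Genes named from each pathway list were those with an unadjusted *p* under 0.05 in the fit and the most abundant by length. *Junb* alone was named from the immediate early genes, and only *Alb*, *Ttr* and *Krt19* from the marker lists. *Bmp2*, *Bmp6*, *Erfe*, *Il22ra1*, *Inhbb*, *Jak1*, *Jak2* and *Tyk2* were named outside this rule. For *Id1*, the 5 genes of highest and 3 of lowest correlation were named. Alternatives were DESeq2 1.42.0, limma voom 3.58.1, other scalings and filters, 1 surrogate variable (sva 3.50.0), another prior count, group means not removed, the TMM factor as a covariate, and leaving out each mouse.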

Additional observations from a re-analysis of the deposited data

Results flagged for a closer look

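Within groups of 7 mice, the most extreme mouse at either end was set against the rest of the group by its gap as a share of the range, and 3 of 42 such shares exceeded the critical value of 0.568. Chance alone gives about 1 in 20. The lowest *Smad6* level of the vehicle group, in G9, was 2.09 on the log2 CPM scale with the next at 2.49, a gap of 0.617 of the range. The highest *Slc40a1* level of the indole group, in G8, was 7.28 with the next at 6.81, a gap of 0.635 of the range. The mean of the 12 Kupffer cell markers in the indole group was also highest in G8, at 4.89 with the next at 3.72, a gap of 0.621 of the range.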

How the results depend on the processing

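Of 576 fitted log2 fold changes under an alternative, 27 changed sign, in 8 genes, among them *Hamp* in 9 of 24 alternatives, *Slc40a1* in 3 and *Atoh8* in 1. The count of all genes with an unadjusted *p* under 0.05 was 482 as reported and 1336 with no filter on low counts, when 22535 genes were tested, and it was 386–627 on leaving out a mouse. The same count over the pathway lists and the immediate early genes together, *Junb* included, was 6 as reported and 3–9 on leaving out a mouse. The *Id1* log2 fold change was −1.20 to −0.83 on leaving out a mouse and −1.06 to −0.88 under the other settings. The pairs of members that passed by rank were 2 as reported, 0 with median-ratio (RLE) scaling, 0 with group means not removed, 1 with the TMM factor as a covariate and 0–2 on leaving out a mouse. The pairs that passed by Pearson correlation were 0 as reported, 1 with the TMM factor as a covariate and 0–1 on leaving out a mouse. Of the 5 genes most like *Id1*, 2 remained with group means not removed and 2–5 on leaving out a mouse. The TMM factor was added as a covariate after seeing the data, and the cause of these changes was not tested. No paired analysis was possible because the groups share no replicate number. The depth of 33–202 counts for *Id1* limits the precision of its level in single mice.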
